A study of Homo sapiens with 8 samples.

Results

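HuR, the product of the gene ELAVL1, is an RNA-binding protein whose bound RNAs were collected here by anti-HuR RNA immunoprecipitation followed by sequencing (RIP-seq) in IMR90 cells, an established line of human fetal lung fibroblasts. The comparison takes 6 of the 8 libraries of the series: an anti-HuR precipitate and an input, made without antibody, from each of 3 lines. The shControl line carries a control hairpin RNA, the shADAR1 line a hairpin against ADAR1 (gene ADAR), an RNA-editing enzyme, and the shHuR line a hairpin against HuR itself. Precipitates were made with a Magna RIP kit and libraries of both kinds with a KAPA RNA HyperPrep kit, per the labels' protocols. The series asked how loss of ADAR1 in senescence raises the cell-cycle inhibitor p16INK4a without RNA editing, and the precipitates ask which RNAs HuR holds. Each line gave 1 library a side, so the replicates of the precipitate are 3 lines that differ in their hairpin. The labels do not give more than 1 culture of any line, so a p-value here reflects no more than how far these 6 libraries scatter. No precipitate with an unspecific antibody was used here, so RNA that stays on the beads without HuR is part of every precipitate value.

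HuR belongs to the ELAV family and is best known for binding uridine-rich stretches, many of them in 3′ untranslated regions (3′UTRs), through RNA recognition motifs. It moves between nucleus and cytoplasm, and for many messages it is described as raising stability or translation. AU-rich elements, the classical binding sites, contain AUUUA and sit in messages of cytokines, growth factors and cell-cycle genes. Other proteins, among them tristetraprolin (ZFP36) and KHSRP, bind the same kind of element and promote decay.

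The sequences below show the kind of 3′UTR that went with recovery and with depletion, as pairs of related genes where possible. Each is the 30-base window with the most U in the 3′UTR of 1 GENCODE 29 transcript (GRCh38), read 5′ to 3′ on the strand of the gene, and capitals mark runs of 4 or more U. The genes ACTG1 (chromosome 17) and ACTA2 (chromosome 10) encode the gamma and smooth muscle actins. TMED7 and TMED9, both on chromosome 5, encode cargo receptors of the early secretory pathway. H2AZ2 (chromosome 7) and H2AZ1 (chromosome 4) encode the H2A.Z histone variants, EIF5A (chromosome 17) a translation factor, GAPDH (chromosome 12) a glycolytic enzyme, RPL12 (chromosome 9) a ribosomal protein and EHD2 (chromosome 19) a protein of caveolae.
ACTG1: uucauucuuaauuuauguaaggUUUUUUUU
ACTA2: cucugacucguuaccuaugugUUUUUUaau
TMED7: gcUUUUcugcugUUUUUUUUUUUUUUaauu
TMED9: uucugucuuccuuugcuaacuuagggUUUU
EIF5A: ugguuuagucUUUUUUUUUUUUUUUUUUUU
GAPDH: uugucauguaccaucaauaaaguacccugu
RPL12: auuucaauaaaggaucauuugacaacuggu
H2AZ2: UUUUcauguggugacaguuguguguugauu
H2AZ1: acacaaUUUUgccUUUUUguaauucuauuu
EHD2: uucUUUUcuuuccuuccuuccuucUUUUUU
The ACTG1 window starts at base 566 of a 3′UTR of 701 bases and holds 19 U of 30, and the ACTA2 window at base 96 of 149 bases with 15 U. The longest U run of the whole 3′UTR was 20 bases in EIF5A, 14 in TMED7, 8 in ACTG1, 4 in TMED9 and 2 in GAPDH. TMED7 and EIF5A were recovered in the precipitates, while ACTG1, ACTA2, TMED9, GAPDH, RPL12 and H2AZ1 were depleted. Not every sequence shown follows the U run: ACTG1 was depleted with a run of 8 U, and H2AZ2 and EHD2 were recovered with no run of 7 U in the transcript shown.

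The deposited table holds expected counts, which are reads assigned to genes by a model and need not be whole. Library totals were 38953671, 44578878 and 29233961 counts for the precipitates of the shControl, shADAR1 and shHuR lines, and 36717888, 28390935 and 34863880 for their inputs. Of 57736 gene identifiers, 15342 had enough counts to be tested, and 14120 of those had a symbol. The knockdowns showed in the inputs. ELAVL1 stood at 90.4, 93.4 and 13.7 CPM (counts per 1000000, scaled by the trimmed mean of M values, TMM) in the shControl, shADAR1 and shHuR inputs, and ADAR at 242.4, 82.8 and 191.5. All 12 fibroblast markers had over 10 counts in every library, with VIM (vimentin) the most abundant in the inputs and COL1A1 (collagen I) in the precipitates, and together they summed to 11153 to 15977 CPM of the unscaled inputs. The 6 epithelial, 5 endothelial and 6 leukocyte markers summed to 16.8 to 41.6, 19.5 to 73.2 and 29.03 to 32.1 CPM, mostly from KRT8, TEK and CD68. ESRP1 and KRT5 (epithelial), CDH5 (endothelial) and CD3E and LCP1 (leukocyte) were at 0 in every input. In bulk libraries, fewer cells of a type and less RNA per cell cannot be told apart.

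Recovery is given as the log2 ratio of precipitate to input, so 0 is an equal level, positive values are recovery and negative ones depletion. A gene was called when edgeR's quasi-likelihood test, fitted over the 6 libraries with line as a block, gave an adjusted p under 0.05. Of 15342 genes, 4806 (31.3%) were recovered, 5022 (32.7%) depleted and 5514 not called. At least 2-fold in every line, with no test, 2720 of 12249 well-counted genes (22.2%) were higher and 2207 (18%) lower. Precipitation thus moved most of the measured transcriptome one way or the other, which is the background for every class below. With total counts in place of TMM, the median over all genes fell from -0.11 to -1.07, and the calls became 2708 recovered and 8084 depleted. The zero point of every ratio therefore depends on the scaling.

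The shHuR line stood apart. Its ratios had a Pearson correlation of 0.76 with the shControl line and 0.86 with the shADAR1 line across the 15342 genes, against 0.91 between those lines; genes are not independent replicates. The lower end was compressed, with a 5th percentile of -1.83 in shHuR against -3.13 in shControl and -2.69 in shADAR1. The upper end was not, with 95th percentiles of 3.33, 3.00 and 2.98 in the shHuR, shControl and shADAR1 lines. Without the shHuR libraries, 5383 genes were recovered and 5863 depleted. Without the shADAR1 libraries the counts were 2831 and 3589, the lowest of the 3 settings that leave out a line.

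**Figure D1:**
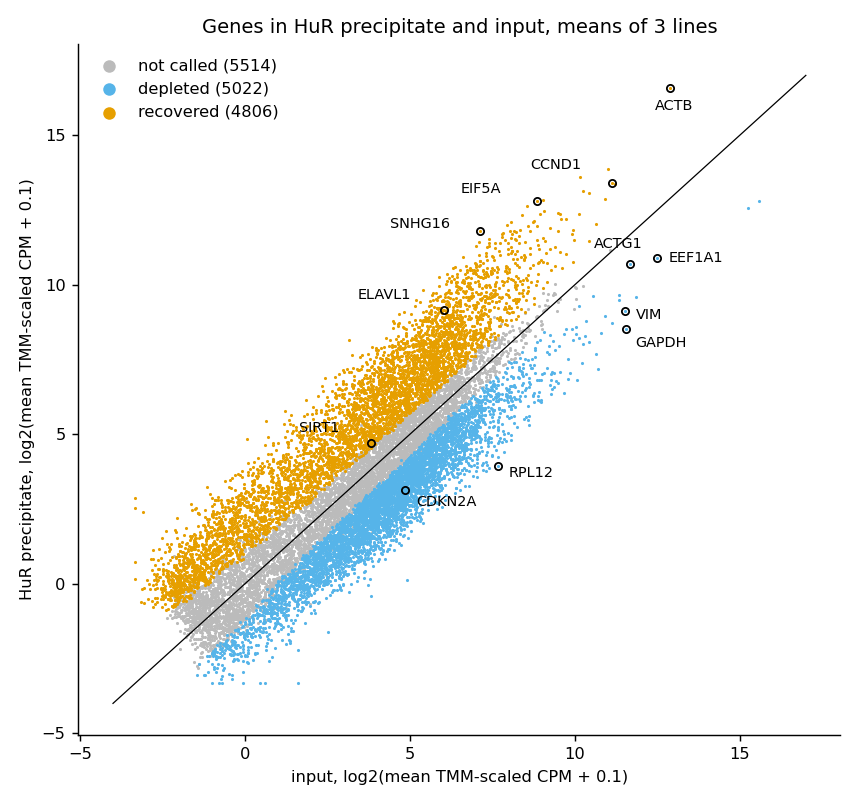
Each point is 1 of 15342 genes, placed by its mean TMM-scaled CPM over 3 lines in the inputs (horizontal) and precipitates (vertical), both as log2 of the value plus 0.1; colours give the call and the line marks equal levels. ACTB, EIF5A and SNHG16 lie far above the line, GAPDH, VIM and RPL12 below it.

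ACTB, the gene of beta actin, gave the dominant message of the precipitates. It made up 7.69%, 7.48% and 5.71% of all counts in the shControl, shADAR1 and shHuR precipitates, against 1.01%, 1.13% and 0.995% of the inputs. On the TMM scale the precipitates held 100351, 104281 and 85940 CPM and the inputs 6951, 8481 and 7060. The groups did not overlap, and the 3 lines differed little. The fitted ratio was 3.69 ± 0.24 (log2, SE), or 12.9-fold, with an adjusted p of 1.1e-05 in edgeR's test.

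Among the highest ratios was that of SNHG16, a long noncoding host of small nucleolar RNAs. It stood at 3523, 2141 and 4909 CPM in the shControl, shADAR1 and shHuR precipitates and at 160.8, 142.4 and 117.5 CPM in the inputs. Every precipitate was far above every input, and the fitted ratio was 4.58 ± 0.35 (SE, edgeR adjusted p 1.1e-05). EIF5A, which helps ribosomes through difficult peptide bonds, stood at 6928, 5748 and 8866 CPM against 533.7, 452.9 and 385.2 CPM in the inputs. That is a ratio of 3.96 ± 0.29 (SE), highest in the shHuR line at 4.52. PCBP2, a poly(C)-binding protein, had 7368, 4670 and 9755 CPM against 540.1, 504.3 and 542.5 CPM, a ratio of 3.72. CCND2 (cyclin D2) differed widely between lines in both kinds of library, with 17.8, 736.9 and 361.4 CPM in the inputs and 266.4, 9461 and 9102 CPM in the precipitates. Its ratios were nevertheless close, at 3.90, 3.68 and 4.65 in the shControl, shADAR1 and shHuR lines.

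The 15 highest and 15 lowest ratios were taken among called genes with a symbol and the same sign in every line. A mean of at least 50 counts in the precipitates or in the inputs was also required. The highest included the complement receptor gene C5AR2 (4.38), the kinetochore gene SPC24 (4.35), the membrane traffic gene MALL (4.32) and the cullin neddylation gene DCUN1D3 (4.32). Also among them were the RAB GTPase gene RAB2B (4.30), the transcription factor gene TFAP4 (4.30) and the growth factor genes PDGFA (4.23) and TGFB3 (4.20). Of these 8, each had 10 or more matches of 7 U in its 3′UTR, from 10 in TGFB3 to 45 in PDGFA. Of all 12704 tested coding genes with a 3′UTR, 1309 had 8 to 15 matches and 1124 had 16 or more. Others of the 15 cannot be placed with certainty, such as the readthrough gene PEDS1-UBE2V1, a pseudogene, an antisense gene and EIF5AL1, a near copy of EIF5A. Among the 15 lowest, 10 were pseudogenes, readthrough transcripts or overlapping genes whose reads can be split with a neighbour or parent. The others included the mucin gene MUC12 (-3.86), the ribosomal protein gene RPL12 (-3.70), the histone gene H2AC21 (-3.79) and the noncoding SNHG9 (-4.08). MUC12 had 1 to 3 counts in the precipitates and SNHG9 at most 9, so both values are imprecise.

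At the depleted end, GAPDH stood at 220.5, 322.2 and 556.5 CPM in the shControl, shADAR1 and shHuR precipitates and at 2378, 3301 and 3353 CPM in the inputs. No precipitate reached an input, and the ratio was -3.13 ± 0.28 (SE, edgeR adjusted p 1.3e-05). VIM had 571.3, 527.5 and 559.4 CPM against 3533, 3255 and 1993 CPM, a ratio of -2.36. RPL12 had 18.1, 9.7 and 17.4 CPM against 313.4, 172.8 and 122.7 CPM, a ratio of -3.70. In each of these 3 genes the ratio was least negative in the shHuR line, at -2.59 for GAPDH, -1.83 for VIM and -2.81 for RPL12. Abundance was also ranked in the separate RNA-seq control library of the series, as counts per kilobase of transcript. Of the 100 coding genes highest there, 77 were depleted and 15 recovered, with a median of -2.50. Among all coding genes tested, 36.8% were depleted and 28.7% recovered. Of the inputs, 13.6%, 12.8% and 10.5% of counts lay on 2 identifiers without a symbol, which held 0.167%, 0.443% and 2.09% of the shControl, shADAR1 and shHuR precipitates.

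The genes at the centre of the series behaved differently from each other. ELAVL1 itself was recovered, with 930.5, 728.4 and 38.2 CPM in the shControl, shADAR1 and shHuR precipitates against the input levels above. The shHuR precipitate lay below the inputs of the other lines, so the groups overlap unless lines are paired, and the ratios were 3.36, 2.96 and 1.47 (fitted 2.62 ± 0.37, SE, edgeR adjusted p 2.0e-04). ADAR held 833.4, 237.9 and 302.2 CPM in the precipitates, with a fitted ratio of 1.32 ± 0.29 (SE, edgeR adjusted p 0.0024). That call was lost without the shADAR1 libraries (0.98, edgeR adjusted p 0.119) and with total counts (0.36, edgeR adjusted p 0.315). CDKN2A, the gene of p16INK4a, was depleted: it held 4.8, 6.7 and 14.4 CPM in the precipitates and 21.5, 25.5 and 39.6 CPM in the inputs, a ratio of -1.84 ± 0.32 (SE, edgeR adjusted p 6.7e-04). With the trend of recovery over transcript length and GC content removed, CDKN2A stood at -0.23 and was not called (edgeR adjusted p 0.401). This table does not separate p16INK4a from the other transcripts of CDKN2A. The deacetylase gene SIRT1 missed the threshold, with 47.4, 19.99 and 10.8 CPM against 19.5, 12.1 and 10.5 CPM and ratios of 1.28, 0.72 and 0.03 (edgeR adjusted p 0.099). CDKN1A, which encodes the inhibitor p21, stood at 0.01 ± 0.24 (SE).

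Ribosomal and respiratory chain genes were among the most depleted classes. Of 84 tested cytosolic ribosomal protein genes, 81 were depleted and 0 recovered (edgeR's test; the 3 others did not pass), with a median of -2.87 against -0.11 for all genes tested. In every line 69 of the 84 were at least 2-fold lower, and line medians were -3.45, -3.23 and -1.97 in shControl, shADAR1 and shHuR. The members that did not pass included the ribosomal protein-like genes RPS27L (0.03) and RPL7L1 (-0.75). Nuclear-encoded genes of the respiratory chain were depleted in 78 of 86 cases, with a median of -2.60. NDUFB1, a complex I subunit, fell to -3.55, while NDUFS1 and NDUFV3 of the same complex rose to 2.12 and 2.94 and hold 27 and 51 matches of 7 U. Mitochondrial ribosomal protein genes split in the same way, with 58 of 75 depleted (MRPL36 at -3.62) and 9 recovered (MRPL42 at 2.29). Without the shADAR1 libraries 3 of these genes were recovered, and with the length and GC trend removed the class median moved from -2.15 to -1.30.

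Other housekeeping classes followed. Of 23 cytosolic tRNA synthetase genes 21 were depleted, led by RARS1 (-2.68) and KARS1 (-2.67), and AARS1 was the 1 recovered member at 0.85, a call lost without the shADAR1 libraries and turned to -0.12 by total counts. Proteasome genes were depleted in 32 of 45 cases, among them PSME1 (-3.05) and PSMD8 (-2.94), while the lid subunits PSMD11 (2.89) and PSMD12 (2.59) were recovered. Glycolysis showed 12 of 19 genes depleted and 5 recovered. ENO1 (enolase, -3.05) stood with GAPDH, and HK2 (hexokinase, 2.22) and the glucose transporter gene SLC2A3 (2.66) at the other end. Of 14 tubulin genes 11 were depleted, including TUBA1A (-2.76) and TUBA4A (-2.98), and TUBB was recovered at 0.97, although with total counts it stood at 0.0003. All 8 genes of the cytosolic chaperonin were depleted, from CCT6A at -1.55 to CCT7 at -2.59.

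Interferon-stimulated genes were depleted in 21 of 30 cases, with a median of -1.64. ISG15, a ubiquitin-like modifier, stood at -2.99 and the membrane protein gene IFITM1 at -3.37. The 6 recovered members included IFI6 (2.97) and IFIT5 (2.99), which hold 17 and 14 matches of 7 U against 0 in ISG15 and IFITM1. Fibroblast marker genes gave 8 of 12 depleted and 0 recovered: THY1 was at -1.84, FN1 (fibronectin) at -1.98 and SPARC at -1.63. COL1A1 and PDGFRA did not pass, at 0.19 and 0.39. Without the shADAR1 libraries 14 interferon-stimulated genes and 5 fibroblast markers were depleted. Genes of DNA replication were depleted in 19 of 32 cases, with GINS1 (3.91) at the top and GMNN (geminin, -2.98) at the bottom. RRM2, a ribonucleotide reductase subunit, was recovered at 1.43, a call lost with total counts and without the shADAR1 libraries. Without line as a block 11 interferon-stimulated and 9 DNA replication genes were depleted.

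Replication-dependent histone genes, whose messages usually end in a stem-loop in place of a poly(A) tail, were depleted in 19 of 27 cases and recovered in 0. Their medians differed between lines more than those of any class above, at -2.995, -2.01 and -0.33 in shControl, shADAR1 and shHuR. Of the 27, 6 were at least 2-fold lower in every line, and 25 were called depleted without the shHuR libraries but 13 without the shControl libraries and 11 without line as a block. H2AC21 was at -3.79 and H1-1 at -3.31. Structural noncoding RNAs and small nucleolar RNAs showed the same order of lines. The 5 tested structural RNAs, among them the spliceosomal RNA gene RNU4-2 and the RNase MRP gene RMRP, had line medians of -2.79, -2.06 and 0.37, and 15 small nucleolar and Cajal body RNAs medians of -1.34, -0.18 and 1.29. Whether the line's HuR level or another property of the shHuR libraries accounts for this was not tested.

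Classes at the recovered end were fewer and mixed. A list of 35 genes reported in earlier work as HuR targets gave 17 recovered, 5 depleted and 13 not called, with a median of 0.68; without the shHuR libraries 21 were recovered and 5 depleted, and without the shADAR1 libraries 11 and 2. The genes of the cap-binding protein EIF4E (3.41), the matrix protein thrombospondin 1 (THBS1, 2.83), the E3 ligase subunit VHL (2.19) and the caspase inhibitor XIAP (2.12) were among the recovered. The angiogenic factor gene VEGFA (1.17) and PTGS2 (cyclooxygenase, 1.23) were also recovered, calls that neither total counts nor the fit without the shADAR1 libraries kept. Depleted members included the protease gene PLAU (-1.84), its receptor gene PLAUR (-1.21) and the cyclin genes CCNB1 (-1.60) and CCNE1 (-1.05). CCNE1 lost its call without the shControl or the shADAR1 libraries, and PLAUR without the shADAR1 libraries (edgeR adjusted p 0.0694). CCNB1 lost its call without line as a block. With the length and GC trend removed neither PLAUR (-0.12) nor PTGS2 (0.46) was called. FOS and JUN, which encode AP-1 subunits and carry AU-rich elements, stood at 0.12 and 0.06 and did not pass. With total counts, 11 of the 35 were recovered and 13 depleted.

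Genes of proteins that themselves bind AU-rich elements were recovered in 12 of 20 cases and depleted in 3, with a median of 1.43. PCBP2 (3.72), CELF1 (3.59), the roquin genes RC3H1 (3.42) and RC3H2 (2.15), KHSRP (2.92), AGO2 (1.98), ZFP36L1 (1.78) and FXR1 (1.76) were recovered. The depleted members were YBX1 (-1.56), ZC3H12A (-0.91) and HNRNPDL (-0.65), and ZFP36 stood at 0.06. ZC3H12A and HNRNPDL lost their calls without the shControl or the shADAR1 libraries, and ZC3H12A turned to 0.028 with the length and GC trend removed. Splicing factors gave 14 recovered and 5 depleted of 35. SRSF6 (3.92) and HNRNPL (3.66) led, and SRSF7 (-1.59) and SRSF5 (-1.35) closed the list. Immediate early genes, 11 recovered and 8 depleted of 35, ran from KLF9 (3.62) and JUND (2.90) to FOSL1 (-1.59) and ATF3 (-2.09). Their recovered share (31.4%) was that of all genes tested (31.3%), and their depleted share was 22.9% against 32.7%. FOSL1 lost its call with the length and GC trend removed (-0.35). Without the shADAR1 libraries 8 splicing factor genes and 4 immediate early genes were recovered.

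The secreted factors of senescent cells gave 12 recovered (40%) and 9 depleted (30%) of 30, against 31.3% and 32.7% of all genes tested. Their median of -0.09 was near that of all genes, -0.11. Secreted factor genes that rose included STC1 (stanniocalcin, 2.70), EREG (epiregulin, 2.15) and IGFBP5 (2.01), and those that fell MMP3 (-2.48). IL6 (-0.72) and CXCL8 (0.07), both interleukin genes, did not pass. Without line as a block, 0 of the 30 were recovered and 2 depleted, and without the shADAR1 libraries 3 and 6.

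**Figure D2:**
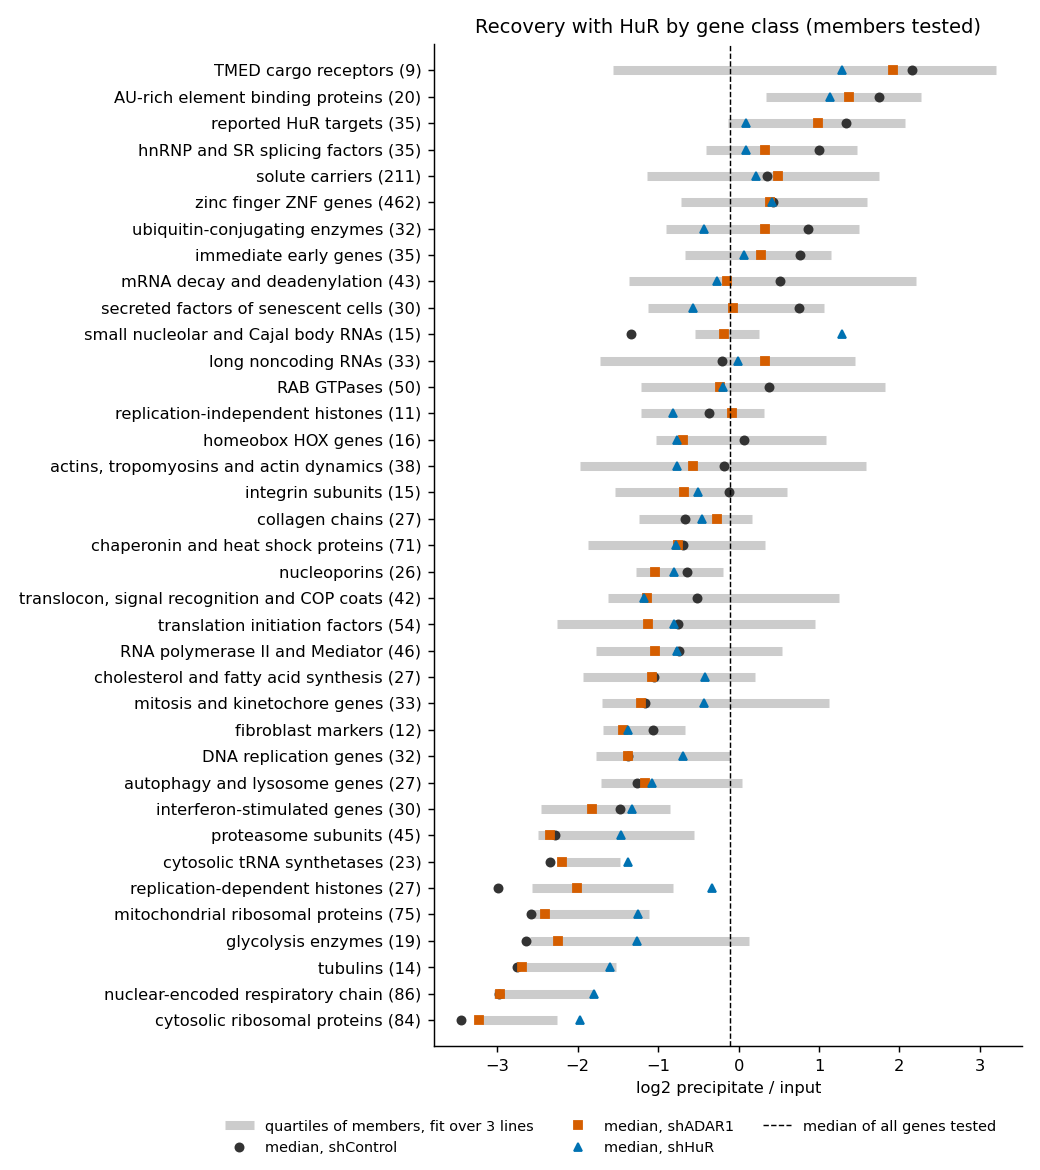
For each gene class (number of members tested in brackets), the grey bar spans the quartiles of the fitted log2 ratio of precipitate to input and the points are the class medians in each line; the dashed line is the median of all genes tested, -0.11. Ribosomal, respiratory and tubulin genes sit lowest at -2.87 to -2.46 over the lines, and the shHuR point lies to the right of the others in those classes.

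Many large families divided within themselves, and in several the division ran along the 3′UTR. A match of 7 U (UUUUUUU, overlapping matches counted, on the transcript's strand, in the 3′UTR of 1 transcript per gene) was present in 41.4% of all 18662 annotated 3′UTRs and in 49.5% of the 12704 tested coding genes with one. Over all of those genes, 48.2% of the ones with a match were recovered and 13.5% depleted, against 9.61% and 59.8% of those without, and the families are to be read against these shares. Of 50 tested genes of RAB GTPases, which direct vesicle traffic, 29 had a match, and 21 of these were recovered and 0 depleted, with a median of 1.38. Of the 21 without a match, 0 were recovered and 15 depleted, with a median of -1.34. RAB2B (4.30) and RAB12 (3.97) stand at one end and RAB13 (-2.72) and RAB1B (-2.31) at the other.

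Ubiquitin-conjugating enzymes showed 12 recovered and 1 depleted of 22 with a match against 1 and 8 of 10 without. UBE2N (4.08) and UBE2E2 (3.43) were recovered, UBE2S (-2.38) and UBE2L6 (-2.30) depleted. Solute carriers showed 69 recovered and 8 depleted of 118 with a match and 17 and 48 of 93 without. Translation initiation factors, close to the share of all genes on the recovered side, showed 15 recovered and 9 depleted of 32 with a match, and 0 and 20 of 22 without, the latter including EIF3C (-2.95). Zinc finger genes, the largest family listed, had 125 recovered and 14 depleted of 220 with a match, and 53 and 75 of 232 without. In other classes a smaller share of the genes with a match was recovered. Of the 23 cytosolic ribosomal protein genes with a match 21 were depleted and 0 recovered. Among genes with a match, depleted ones also outnumbered recovered ones in the respiratory chain (10 against 4 of 17), the proteasome (6 against 4 of 13), DNA replication (6 against 2 of 15), the collagen chains (5 against 3 of 18) and the tRNA synthetases (4 against 0 of 5). Splicing factors were recovered in 11 of 27 cases with a match (40.7%) and in 3 of 7 without (42.9%). Without the shADAR1 libraries fewer genes were called: 13 RAB, 107 zinc finger, 49 solute carrier and 8 ubiquitin-conjugating enzyme genes were recovered, against 21, 186, 86 and 13 over all lines. Depleted were 11, 42, 40 and 2 in the same order, against 15, 89, 56 and 9.

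Small families make the contrast easiest to see. Of the actins, ACTG1 stood at 2237, 1663 and 1074 CPM in the shControl, shADAR1 and shHuR precipitates against 3657, 3589 and 2551 CPM in the inputs, a ratio of -1.02, with 2 matches of 7 U against 14 in ACTB. ACTA2 had 19.8, 54.2 and 108.4 CPM against 183.5, 489.6 and 481.2 CPM, a ratio of -2.85, with 0 matches. The 3 actins thus ranked in the order of their matches. ACTG1 lost its call with the length and GC trend removed (-0.25). Of the D cyclins, which drive entry into the cell cycle, CCND1 (2.24, 8 matches) and CCND2 (4.08, 52 matches) were recovered and CCND3 (-1.87, 0 matches) depleted. The calponins CNN2 (2.62, 11 matches) and CNN3 (3.60, 19 matches) were recovered and CNN1 (-1.26, 2 matches) depleted, a call lost with the length and GC trend removed (-0.0055, edgeR adjusted p 0.986). Tropomyosins followed no such order with 1 transcript per gene, as TPM1 (1.88) and TPM3 (2.41) had 0 matches, like TPM2 (-2.53); other transcripts held 1 match in TPM1 and 4 in TPM3.

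The importin alpha genes, which serve nuclear import, ran from KPNA2 (-2.28, 0 matches) to KPNA4 (3.39, 28 matches) and KPNA6 (3.50, 23 matches). KPNA1, with 19 matches, stood at 0.40 and did not pass, so the number of matches did not order this family. Of the YWHA adapter genes, YWHAE (3.32), YWHAZ (2.26), YWHAG (1.80) and YWHAH (1.35) were recovered with 8 to 21 matches, YWHAQ (-1.89) was depleted with 0, and YWHAB (0.04) had 1. Among the TMED genes, 5 of the 6 with a match were recovered, and 3 of 3 without were depleted (1 without line as a block). TMED7 stood at 1120, 1502 and 2703 CPM in the precipitates against 89.3, 158.0 and 173.8 CPM in the inputs, and TMED9 at 14.9, 20.1 and 66.8 CPM against 62.0, 69.9 and 118.7 CPM. The TMED7 precipitates all lay above its inputs, and the TMED9 groups overlapped between lines although the ratio was negative in each line (fitted -1.56). The TMED9 call was lost with the length and GC trend removed (-0.44). The TMED1 value is uncertain because its exons overlap another gene. H2AZ2 (2.20) and H2AZ1 (-2.65) had 0 matches in the transcripts used, and another H2AZ2 transcript held 12.

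**Figure D3:**
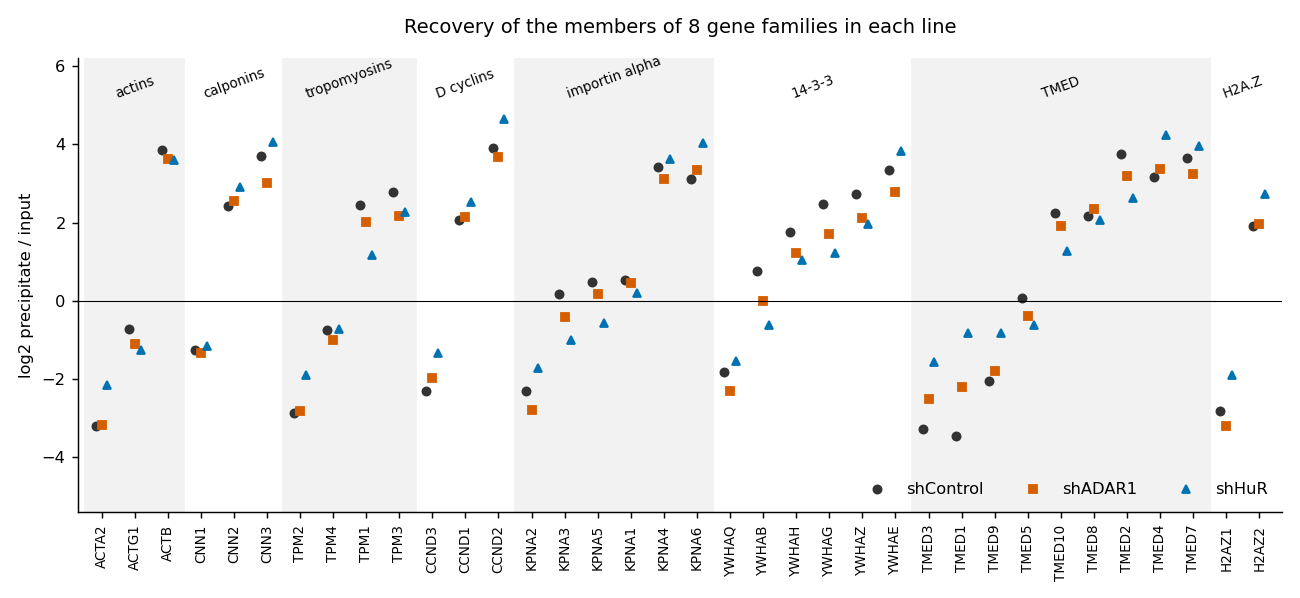
Log2 ratio of precipitate to input in each line (shControl circles, shADAR1 squares, shHuR triangles) for the members of 8 gene families, ordered within each family by the fitted value. Members of 1 family lie on both sides of 0, as with ACTB at 3.69 and ACTA2 at -2.85, and the lines mostly agree in direction.

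Over all 12704 coding genes with a 3′UTR, recovery followed the number of matches of 7 U. Of 6418 genes with 0 matches, 9.61% were recovered and 59.8% depleted, with a median of -1.27. With 1 match (1191 genes) the shares were 15.9% and 31.8%, and with 2 to 3 matches (1323 genes) 26.0% and 20.4%. With 4 to 7 matches (1339 genes) 44.2% were recovered and 9.11% depleted. With 8 to 15 (1309 genes) the shares were 71.96% and 3.97%, and with 16 or more (1124 genes) 85.6% and 2.31%, with a median of 2.38. The median thus rose at every step. In the top bin the lines had nearly the same median, at 2.35, 2.28 and 2.41 in shControl, shADAR1 and shHuR, whereas with 0 matches they stood at -1.60, -1.37 and -0.71. The shHuR line thus differed most from the others in the genes with 0 matches. Without the shADAR1 libraries 28.6% of genes with a match were called recovered, against 48.2% over all lines.

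**Figure D4:**
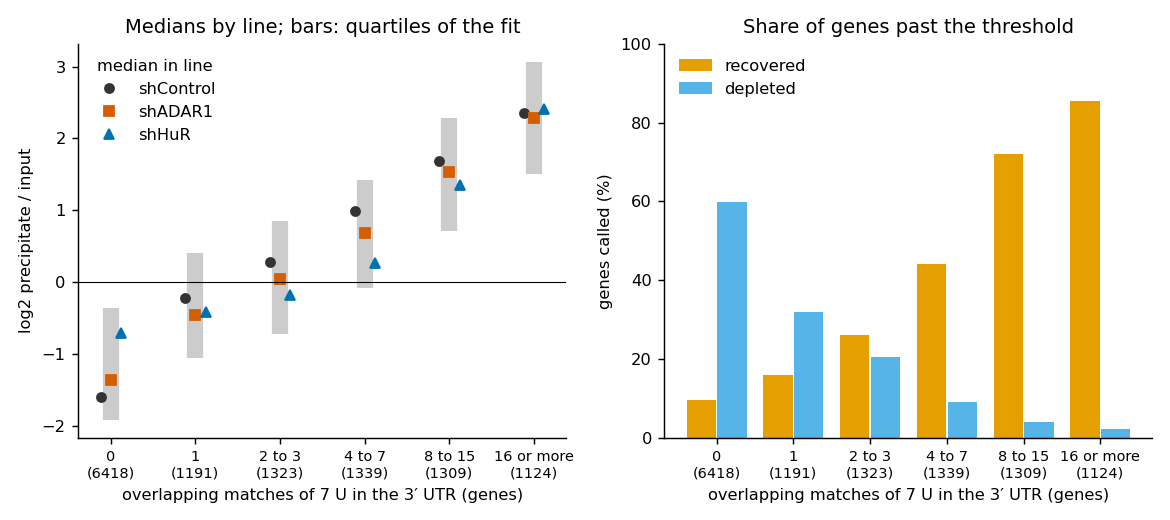
Left, log2 ratio of precipitate to input by the number of overlapping matches of 7 U in the 3′UTR (genes per bin in brackets), with quartiles of the fit as bars and medians by line as points; right, the percent of genes recovered and depleted in each bin. Recovered genes rise from 9.61% to 85.6% and depleted genes fall from 59.8% to 2.31%.

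Long 3′UTRs hold more matches, so genes were also set side by side in 4 equal classes of 3′UTR length. In the shortest class (1 to 456 bases) the median was -0.43 with a match and -1.63 without, and in the longest (2486 to 32870 bases) 1.15 and -0.63. The middle classes gave 0.05 and -1.26, and 0.61 and -0.93. The gap between genes with and without a match was over 1 log2 unit in each class, and length went with recovery in both. By GC content of the transcript, the medians with and without a match were 0.90 and -0.66 in the lowest of 4 equal classes and 0.25 and -1.59 in the highest. With the trend of recovery over length and GC content removed, medians were 0.32 with a match, -0.78 without and 1.67 with 16 or more.

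The AUUUA pentamer, the core of the classical AU-rich element, went with smaller differences. It was found in 64.5% of all 3′UTRs and 71.2% of those tested, and the nonamer UUAUUUAUU in 7.55% and 8.96%. Genes with AUUUA had a median of 0.11 and those without -1.45. Of the 1138 genes with the nonamer, 49.6% were recovered and 12.8% depleted, with a median of 0.84 against -0.47 without it. These shares were near those of genes with a match of 7 U (48.2% and 13.5%). Genes with the nonamer were not split by matches of 7 U or by length. Among genes without a match of 7 U, AUUUA went with medians of -1.35, -1.10, -0.77 and -0.58 from the shortest to the longest length class, against -1.72, -1.53, -1.39 and -1.26 without it. AUUUA alone therefore went with less depletion, and its genes had medians below 0 in each class. Over the 12704 genes, Spearman's rho with recovery was 0.59 for matches of 7 U per kilobase, 0.28 for AUUUA per kilobase, 0.50 for 3′UTR length, 0.33 for the percent of U and 0.14 for coding length. These are correlations across genes that share the same 6 libraries and are given as descriptions.

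All 4096 words of 6 bases were compared in the same way, with density in the 3′UTR of 11434 genes. The word UUUUUU ranked 1 in each of the 3 lines, with a rho of 0.59, and 0.63, 0.58 and 0.47 in the shControl, shADAR1 and shHuR lines. The next was UUUUUG at 0.42, then AUUUUU at 0.41 and UUUUUA at 0.38. The median rho rose with the number of U in the word, from 0.07 with 0 U to 0.35 with 5 U. In the coding sequence UUUUUU had a rho of 0.12 and rank 194. In the 5′UTR it again had rank 1, with a rho of 0.09. The lowest word in the 3′UTR was AAUAAA at -0.16, the hexamer best known as the polyadenylation signal.

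**Figure D5:**
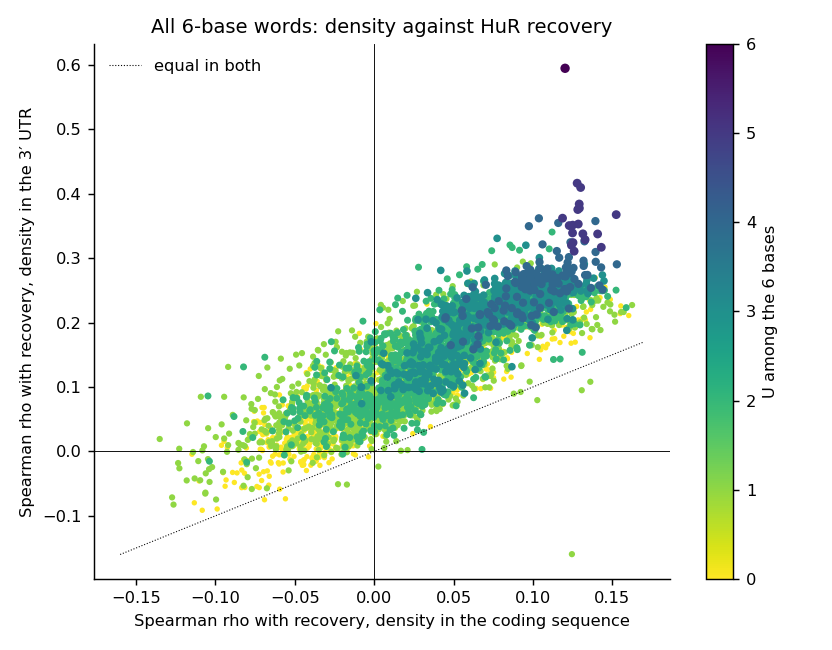
Each point is 1 of 4096 words of 6 bases, with Spearman's rho between its density and recovery in the coding sequence (horizontal) and in the 3′UTR (vertical), coloured by the number of U in the word. The word made of U alone stands apart at 0.59 in the 3′UTR and 0.12 in the coding sequence.

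Alu elements, short repeats whose inverted copies pair and are edited by ADAR1, carry long A runs, which in the antisense direction are U runs. A piece of an antisense Alu (GGGAUUACA) was found in 1353 of the 12704 3′UTRs and the sense piece (UGUAAUCCC) in 1362. Of 906 genes with the antisense piece only, 643 were recovered and 57 depleted, with a median of 1.88. Of 915 with the sense piece only, 287 were recovered and 235 depleted, with a median of 0.02. Nearly all of the first group (94.0%) had a match of 7 U against 65.4% of the second. Among the 10436 genes with neither piece the pattern by matches stayed, with medians of -1.30 for 0 matches, 0.55 for 1 or more and 2.50 for 16 or more.

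Many genes did not follow the matches. Of the 5694 genes with 0 matches in any annotated coding transcript, 390 were recovered and 3640 depleted. Chosen after their values were seen as the most abundant of these, EHD2 (3.41), the interferon signalling factor gene STAT2 (2.63), the kinase gene CSNK2A2 (3.33), the phosphatase gene PTPRS (3.54), the ligase gene TTC3 (1.31) and the splicing factor gene HNRNPC (1.16) were recovered. The EHD2 window shown above is rich in C and U with runs of at most 6 U. Of 1124 genes with 16 or more matches, 26 were depleted, among them the ATP synthase gene ATP5F1A (-1.69, 87 matches), the dynein gene DYNC1H1 (-1.38, 39 matches), the helicase gene DDX24 (-2.28, 22 matches) and RPS15A (-1.74, 30 matches). The annotated 3′UTR need not be the one these cells use, and a further 689 genes had matches only in a transcript other than the one taken, with a median of 0.05.

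Several annotated kinds of noncoding gene stood higher than coding genes, and others did not. The median was -0.33 for 12832 protein-coding genes, with 3688 recovered and 4720 depleted, and 1.35 for 576 long intergenic noncoding genes, with 290 recovered and 55 depleted. Antisense genes (573) had a median of 0.93, and 72 sense intronic genes a median of 2.19 with 49 recovered and 0 depleted. The 5 structural RNAs had a median of -1.60 with 3 depleted and 0 recovered, and a list of 33 long noncoding RNAs had a median of -0.12 with 15 recovered and 13 depleted. Reads of sense intronic and antisense genes cannot be told apart here from unspliced or opposite-strand RNA of the host gene, because the strand setting of the counting is not given in the sources used here. Among well-known members, the nuclear RNAs MALAT1 (1.15) and NEAT1 (0.84), NORAD (1.77), TUG1 (1.45) and OIP5-AS1 (1.39), a cytoplasmic RNA known to bind HuR, were recovered. The calls of MALAT1, NEAT1, TUG1 and OIP5-AS1 were lost with total counts, where NEAT1 turned to -0.13, and without the shADAR1 libraries. Those of MALAT1 and NEAT1 were also lost without the shControl libraries. With the length and GC trend removed MALAT1 (0.32), NEAT1 (0.016) and OIP5-AS1 (0.33) were not called. Host genes of small nucleolar RNAs split: SNHG29 (2.95), SNHG20 (2.40) and SNHG14 (1.85) joined SNHG16, while SNHG8 (-3.62), SNHG5 (-2.69), DANCR (-2.14), GAS5 (-2.06) and SNHG1 (-1.38) were depleted. MEG3 stood at -0.62 and did not pass.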

How the data were processed

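The 6 RIP-seq libraries of IMR90 cells were used, paired by line. Of the RNA-seq pair of the series only the control library entered. It served as an alternative reference and to rank coding genes by abundance. The deposited values are expected counts per gene, made by the authors with RSEM 1.2.3 on hg19 (GRCh37), per the submitters' processing notes; the aligner, annotation release and strand setting are not given in the sources used here. These counts were used as deposited, without a rounding step.

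Genes were filtered with filterByExpr, scaled by TMM and tested with edgeR 4.0.16 (R 4.3.3; quasi-likelihood test, design line plus precipitate, 2 residual degrees of freedom, Benjamini-Hochberg adjustment). Ratios within a line used a prior count of 2. Each precipitate was paired with the input whose title names the same line. The p-values printed are edgeR's adjusted p. Alternatives were RLE, total-count and upper-quartile scaling, no filter, DESeq2 1.42.0, no line block, removal of a length and GC trend (mgcv 1.9.3), 2-fold rules and each line left out. Added after seeing the data were the removal of overlapping genes, the largest match count over transcripts and the removal of 3′UTRs with Alu pieces. Scripts were tested on simulated counts.

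Identifiers were matched to symbols (40136 of 57736) and to GENCODE 29 transcripts on GRCh38, from which 1 transcript per gene gave lengths and motifs (14829 of the 15342 tested genes); no coordinates were carried between builds. Named genes included the 15 highest and 15 lowest ratios among genes of at least 50 mean counts, under the rule given with them. Also named were the 10 largest shares on each side, the 2 extremes of each list and 7 preset genes. Other genes named were chosen after their values were seen. The classes, lists and the comparison itself were chosen with earlier results of these data known. Mitochondrially encoded genes were not analysed here. Counts per library (29233961 to 44578878) keep the counting error of abundant genes far below the spread between lines.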

Additional observations from a re-analysis of the deposited data

Results flagged for a closer look

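In 2 classes and 7 of the named genes the lines lay on opposite sides of 0, with at least 1 line above 0.5 and 1 below -0.5 on the log2 scale. Classes were judged by their line medians. For genes, the 95% intervals of counting error had to clear these limits. Genes that are not named were not searched in this way. With 1 pair of libraries per line the differences between lines were not tested. The secreted factors of senescent cells had medians of 0.76 in the shControl, -0.067 in the shADAR1 and -0.57 in the shHuR line. The interleukin gene CXCL8 followed the same order at 1.75, -0.050 and -1.08, as did the hypoxia factor gene HIF1A at 1.37, 0.32 and -1.03 and the adapter gene YWHAB at 0.75, -0.015 and -0.61. The neuronal tubulin gene TUBB3 stood at 0.52, 0.71 and -0.71.

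The opposite order, lowest in shControl and highest in shHuR, was seen in small nucleolar and Cajal body RNAs, with medians of -1.34, -0.18 and 1.29. The spliceosomal RNA gene RNU1-1 stood at -2.35, -1.42 and 0.85, the histone gene H2AC11 at -1.98, 0.048 and 2.67, and the collagen gene COL1A1 at -0.66, 0.11 and 1.13. None of these 7 genes passed edgeR's test over the 3 lines.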

How the results depend on the processing

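Values of the named genes under each alternative were set against the main fit. Of these, 2818 kept their call or lack of one, 57 gained a call and 118 lost one. A further 16 changed sign with a call in at least 1 of the 2 fits. Changes of sign in genes called in neither fit are counted among the 2818. With total counts, 2708 genes were recovered and 8084 depleted; without the line block, 3020 were depleted and 3590 recovered. The rule of 2-fold in each line gave 2720 and 2207. Leaving out each line in turn gave 2831 to 5383 recovered and 3589 to 5863 depleted genes. With total counts, 12 named genes changed sign with a call in at least 1 of the 2 fits. AARS1 turned to -0.12, CDKN1A to -0.96, COL1A1 to -0.77, COL3A1 to -0.82, DEK to -0.80 and FOS to -0.84. JUN turned to -0.91, KPNA5 to -0.93, NEAT1 to -0.13, RPS27L to -0.94, YWHAB to -0.92 and ZFP36 to -0.90. This setting moves every gene down by a like amount. Removing the length and GC trend turned KPNA5 to -1.43, RPS27L to -0.69 and ZC3H12A to 0.028; leaving out the shHuR line (replicate 3) turned H2AC11 to -0.97. The cause was not tested. Of 480 class medians relative to all genes, 399 moved by less than the spread between lines and 81 by more. With the RNA-seq control library in place of the input, 28 class medians moved by more and 12 by less. With the length and GC trend removed, 21 moved by more and 19 by less. Under RLE, total-count and upper-quartile scaling and DESeq2, all 40 moved by less in each setting. Scaling shifts all genes alike, so under the other scalings these relative medians could hardly move. Depth limits genes of few counts; the 95% intervals behind single lines cover counting error only.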
